A study of Mus musculus with 44 samples.

Results

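The RNAs described here were abundant in C2C12 cells and kept a similar level in input RNA while the cells differentiated. They were chosen as array probes by a rule on measured values. Log2 signals of the 15 input arrays were quantile normalized and averaged per day. Of 25697 probes, 4128 were detected (detection p-value under 0.05) on all 44 arrays, and in 786 of these the 3 day means of input lay within 0.2 of each other on the log2 scale. The 300 of these with the highest mean over the input arrays are the abundant stable probes.

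C2C12 is a line of female mouse myoblasts. Cells were grown in medium with serum (day 0) or moved to medium with less, horse, serum to differentiate. Their lysates were incubated with beads that carried an antibody against AUF1 or control IgG, and the RNA held on the beads (pulldown) was measured on Illumina bead arrays beside input RNA, which had not been through a pulldown. On days 0, 2, 4 and 6 the AUF1 pulldown had 4, 3, 3 and 4 arrays, and the IgG pulldown had 4, 3, 4 and 4. Input had 5 arrays each on days 0, 3 and 6. All groups came from this one line, and the labels name no knockdown or transgene. Titles of the input samples speak of DNA, but their descriptions and molecule field give RNA. The labels do not say whether arrays of a group came from separate cultures, so the p-values below measure the spread between these arrays, which may be technical.

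AUF1, also called hnRNP D, is an RNA-binding protein known for its affinity for AU-rich sequences, often in the 3′ untranslated regions of mRNAs. It is known to speed the decay of many of the mRNAs it binds and to stabilise or help translate others, and in muscle cells it is known to act on mRNAs that take part in differentiation. RNA recovered with control IgG shows what the beads and an unrelated antibody carry over. The labels' protocol names no crosslinking step before lysis. The sources used here do not pair the probes with genes or sequences, so probes are named by their Illumina identifier alone and no functions are given.

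The values that the rule used are a description and were not tested. The mean input level of the 300 probes lay between 9.2 and 14.48 on the log2 scale, with a median of 10.18. The last of them, ILMN_2720925, had a mean of 9.1975, and the first outside, ILMN_2674281, had 9.1937. The largest difference between day means had a median of 0.13, and 92 of the 300 stayed under 0.1. ILMN_1224651 was nearest to the stability limit inside, at 0.1996, and ILMN_2657066 was the nearest outside, at 0.2013. For comparison, 1452 probes were as abundant and as widely detected but exceeded the limit. Their median input level was 10.25 and their median day difference was 0.596. Across the arrays of a group, the median SD of the 300 probes was 0.237 to 0.336 in AUF1 pulldown groups, 0.339 to 0.435 in IgG groups and 0.183 to 0.296 in input groups (log2).

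Pulldown arrays varied in brightness. Over all probes, 35.2% ± 6.74 (SD, n = 14) were detected on AUF1 arrays, 41.6% ± 5.83 (n = 15) on IgG arrays and 46.9% ± 1.17 (n = 15) on input arrays. On 5 pulldown arrays the detected share was under 30%: AUF1 day 0 experiment 2, AUF1 day 2 experiments 1 and 2, AUF1 day 4 experiment 3 and IgG day 4 experiment 2. The experiment number, 1 to 4, is the one in the column names. Signals ran between 32.4 and 37011.4 before normalization.

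The abundant stable probes were recovered in both pulldowns at about the same place in the ranking of all probes as in input. The rule asked for detection on all 44 arrays, 29 of them pulldown arrays, so poorly recovered probes were left out beforehand. Recovery and a high rank in the pulldowns were thus in part fixed by the selection and are a description. Before normalization their median signal was 661 ± 374 on the AUF1 arrays (SD, n = 14, lowest 152, highest 1298), 1251 ± 490.5 on the IgG arrays (n = 15, lowest 184.8, highest 1983) and 1206 ± 284 on the input arrays (n = 15, lowest 865, highest 1913). Their share of the summed signal of all probes was 7.66% ± 1.76 on AUF1 arrays, 8.67% ± 1.2 on IgG arrays and 9.17% ± 0.347 on input arrays. AUF1 arrays were dimmer on average, and the ranges of all 3 kinds of array overlapped. The share moved with brightness: it was 5.32% ± 1.07 on the 5 arrays with under 30% of probes detected and 8.78% ± 0.776 on the other 24 pulldown arrays. The labelling reaction starts from a fixed mass of RNA, so levels are relative to the other RNA on an array. In bulk samples fewer cells with an RNA and less RNA per cell cannot be told apart. The median of the 300 probes' mean percentiles within the arrays was 95.83 to 95.99 in AUF1 groups, 95.58 to 95.95 in IgG groups and 95.87 to 95.95 in input groups.

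**Figure D1:**
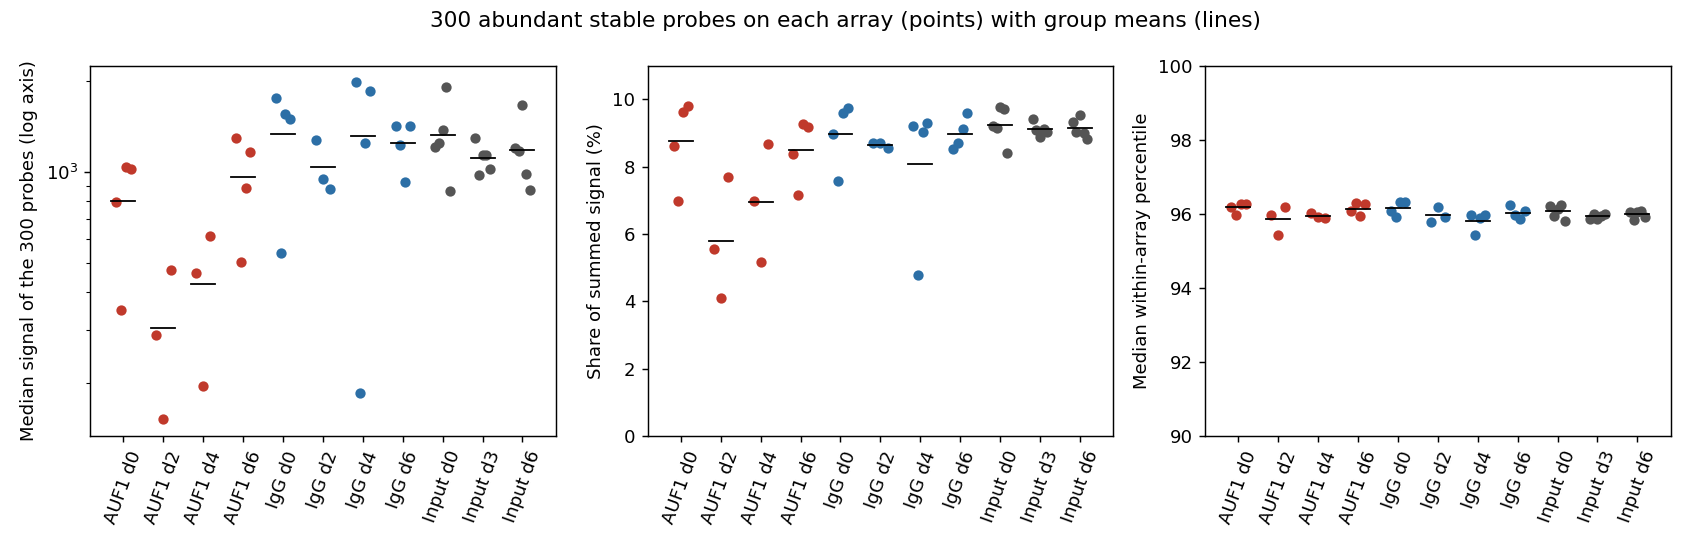
The 300 abundant stable probes on each array, grouped by pulldown and day (d): median signal before normalization (left, log axis), share of the summed signal of all probes in percent (middle) and median percentile within the array (right, axis starts at 90). Points are arrays and lines are group means; the first 2 measures are low on the dim pulldown arrays, down to 152 and 4.10%, while the percentile stays near 96 throughout.

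Single probes moved more than the set as a whole. No abundant stable probe had a group mean under the 90th percentile in input, which the rule largely fixed. In the AUF1 pulldown 31, 35, 28 and 34 of the 300 lay under it on days 0, 2, 4 and 6, and in the IgG pulldown 23, 40, 39 and 28 did. The lowest group means reached the 79.14th percentile in AUF1 and the 77.19th in IgG.

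Pulldown and input were set side by side on days 0 and 6, when both were measured, after normalizing all 44 arrays together. Since input levels and detection on every array chose the members, these differences are a description and carry no test. After quantile normalization the median of the 300 probes was close to its level in input, while single probes spread over more than 4 log2 units. On day 0 the AUF1 pulldown minus input difference had a median of -0.04, an SD over probes of 0.854 and a range of -3.02 to 2.02. The IgG difference on that day had a median of -0.02, an SD of 0.809 and a range of -2.44 to 2.39. On day 6 the medians were 0.02 for AUF1 and -0.01 for IgG, with SDs of 0.88 and 0.83. The medians depended on the scaling and on the choice of members. Median scaling gave -0.829 for AUF1 and -0.19 for IgG on day 0 and -0.384 for AUF1 on day 6, and a stability limit of 0.1 gave medians between 0.466 and 0.602. Both differences of a day share the same input arrays, so no relation between them is given.

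Most of the 300 probes stayed within 2-fold of input in either pulldown. In AUF1 on day 0, 34 were at least 2-fold higher than in input, 41 at least 2-fold lower and 155 within 1.5-fold. In IgG on day 0 these counts were 26, 42 and 154. On day 6 they were 25, 49 and 146 in AUF1, and 18, 44 and 162 in IgG. In each of these 4 comparisons more probes were 2-fold lower than 2-fold higher. The 1452 equally abundant probes that changed in input leaned the same way, with 133 higher and 216 lower in AUF1 on day 0, and so did all probes tested, with 1618 and 1980. Among the 4128 probes detected on every array, most of which were less abundant, 1004 were higher and 300 lower.

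Arrays of the AUF1 pulldown did not overlap with those of input on day 0 for 53 probes that were higher and 57 that were lower, 36.7% of the 300. The same held for 39.4% of probes detected on all arrays and 32% of the 15410 probes detected on at least 3 arrays. The share of the abundant stable probes was thus near the background. In the IgG pulldown on day 0 the share was 28.7% (42 higher, 44 lower), against 29% and 23%. On day 6 it was 51.7% in AUF1 (72 higher, 83 lower), against 53.9% and 39.6%, and 43.7% in IgG (62 higher, 69 lower), against 49% and 38.2%. Across the 300 probes the level in pulldown and in input correlated with r = 0.741 (AUF1, day 0), 0.761 (IgG, day 0), 0.739 (AUF1, day 6) and 0.757 (IgG, day 6). This is a correlation across probes, which share normalization and are not replicates. It was 0.841, 0.848, 0.804 and 0.824 over the 4128 probes, whose levels cover a wider range.

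**Figure D2:**
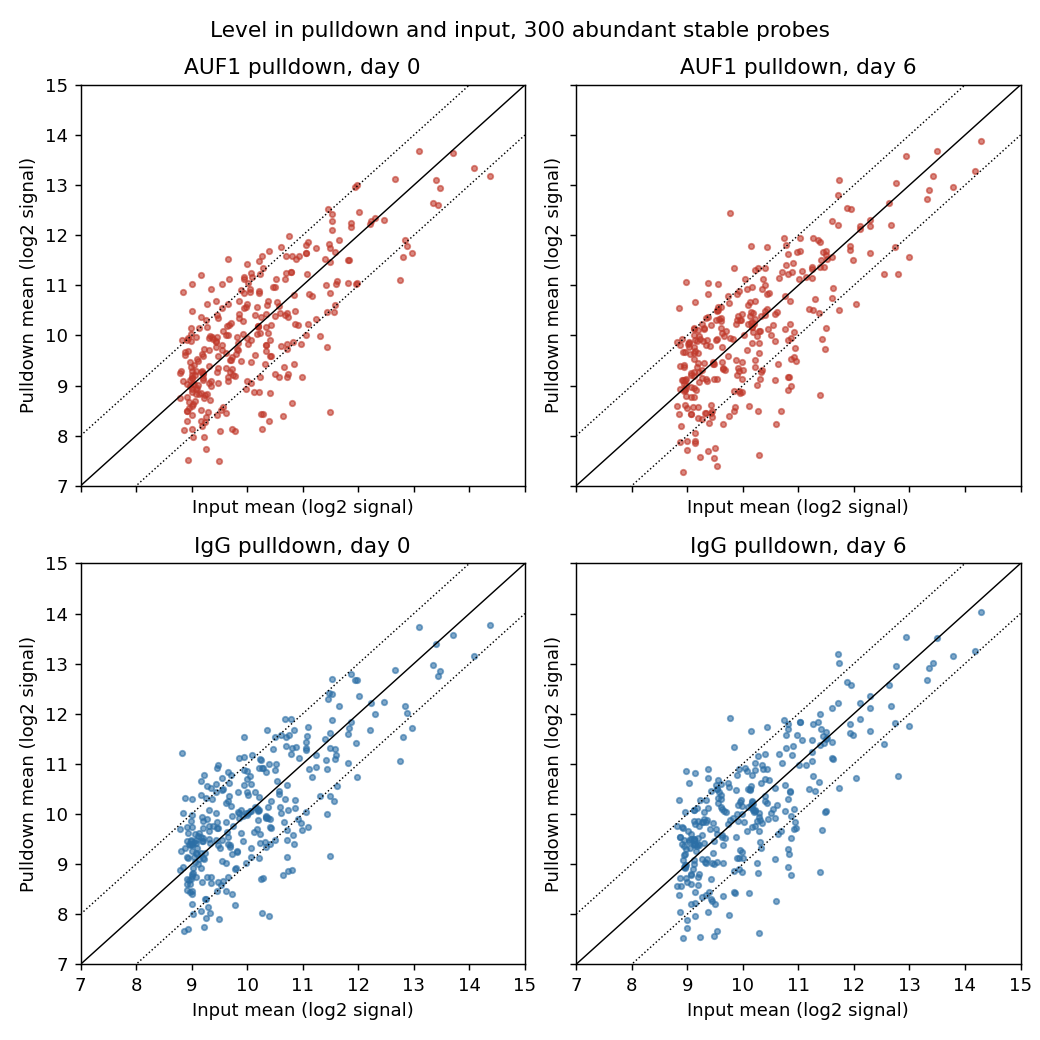
Mean log2 signal of each of the 300 abundant stable probes in a pulldown (vertical axes; AUF1 above, IgG below) and in input of the same day (horizontal axes), after normalizing all 44 arrays together. The solid line marks equal levels and the dotted lines 2-fold differences; in AUF1 on day 0, 34 points lie above and 41 below the dotted lines.

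The probes farthest above input in the AUF1 pulldown, averaged over days 0 and 6, were ILMN_2689333 and ILMN_2776764. ILMN_2689333 read 10.97, 11.38, 11.05 and 11.11 in AUF1 on day 0 and 12.39, 12.5, 12.85 and 12.06 on day 6. It read 11.64, 11.82, 11.52 and 11.16 in IgG on day 0 and 12.28, 10.87, 12.4 and 12.13 on day 6. Its 15 input arrays lay between 9.25 and 10.27 with a median of 9.82. Every pulldown array of days 0 and 6 was thus above every input array, with AUF1 as with IgG. The difference from input was 1.18 in AUF1 and 1.59 in IgG on day 0, and 2.68 and 2.15 on day 6.

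ILMN_2776764 behaved alike. It averaged 10.37 ± 0.667 in AUF1 and 10.66 ± 0.358 in IgG on day 0 (SD, n = 4 each), against 9.18 ± 0.426 in input (n = 5). On day 6 it averaged 11.07 ± 0.382 in AUF1 and 10.85 ± 0.542 in IgG, against 8.98 ± 0.163 in input. The 15 IgG arrays of all days lay between 9.5 and 11.61, and AUF1 and IgG arrays overlapped on each of the 4 days.

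The probes farthest below input were ILMN_1239110 and ILMN_1258977, and they too were low with both antibodies. ILMN_1239110 averaged 8.47 ± 1.21 in AUF1 and 9.16 ± 1.48 in IgG on day 0 (SD, n = 4 each), against 11.49 ± 0.195 in input (n = 5). The arrays of experiment 3 were the lowest of each pulldown group that held one, at 6.73 and 6.78 in AUF1 on days 0 and 6, 6.8 in AUF1 on day 4, and 7.22, 7.47 and 6.53 in IgG on days 0, 4 and 6. All 14 AUF1 arrays (highest 10.12) and all 15 IgG arrays (highest 10.81) lay below the lowest of the 15 input arrays, 10.85. ILMN_1258977 lay between 6.59 and 9.2 on the AUF1 arrays, with a median of 7.84. On the IgG arrays it lay between 6.06 and 9.24, with a median of 7.43, and on the input arrays between 10.06 and 10.72, with a median of 10.35. Its pulldown arrays likewise did not reach the input arrays, with AUF1 or with IgG.

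The comparison of AUF1 with IgG asks which RNAs were held on the beads through the AUF1 antibody. The rule did not use it, so it was tested, with limma over all 13812 probes detected on at least 3 of the 29 pulldown arrays, and a probe was called at a Benjamini-Hochberg adjusted p under 0.05. Averaged over the 4 days, 53 of the 300 abundant stable probes were higher in AUF1 and 46 were lower, which is 33%. The share was 33.7% among probes detected on all arrays, 33.9% among the 1452 equally abundant probes that changed in input and 21.1% among all probes tested. The abundant stable probes were thus called about as often as other widely detected probes, and this count is no result particular to them. All 300 passed the detection filter because the rule asked for detection on every array.

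The differences averaged over the 4 days were small. AUF1 minus IgG, averaged over the 4 days, had a median of 0.06 over the 300 probes and a range of -1.21 to 0.911 (log2). By this average no abundant stable probe was 2-fold higher in AUF1 and 4 were at least 2-fold lower. Over all probes tested the median was -0.02, with 29 at least 2-fold higher and 321 at least 2-fold lower. By input level, 13 probes were called higher and 13 lower among the 100 brightest members, 23 and 15 among the middle 100, and 17 and 18 among the 100 dimmest. Single days differed more than the average. On days 0, 2, 4 and 6, 1, 7, 10 and 0 of the 300 were at least 2-fold higher in AUF1 and 7, 17, 13 and 1 at least 2-fold lower. Over all 13812 probes tested these counts were 115, 564, 421 and 6 higher and 389, 1135, 697 and 33 lower.

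The direction depended on the scaling. When arrays were scaled to the same median in place of quantile normalization, 0 of the 300 were called higher and 194 lower (64.7%, against 49.1% of all probes tested). The median of all probes then lay at -0.565 and that of the 300 at -0.982, so relative to all probes the 300 were lower by this scaling. Between 24.4% and 46.84% of probes were detected on a pulldown array, so the median probe was one that was not detected. With AUF1 and IgG arrays of the same experiment and day as a block, 94 were called higher and 75 lower (56.3%, against 60.9% of probes detected on all arrays and 47.3% of all tested).

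ILMN_2675261 and ILMN_3104414 had the largest differences upward. ILMN_2675261 lay between 9.99 and 11.4 on the 14 AUF1 arrays, with a median of 10.8, and between 9.08 and 10.84 on the 15 IgG arrays, with a median of 9.96 (log2, pulldown arrays). It was above the IgG mean of its day on 13 of 14 AUF1 arrays, and the groups overlapped on 1 of the 4 days. Its difference was 0.911 ± 0.153 (SE, adjusted p = 0.00033 by limma). The adjusted p ranged between 7.38e-06 and 0.837 over 37 alternatives, and with median scaling the difference was -0.0674.

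ILMN_3104414 lay between 9.61 and 11.52 on the AUF1 arrays, with a median of 11.1, and between 9.21 and 10.97 on the IgG arrays, with a median of 10.03. By day it averaged 11.08, 11.23, 11.4 and 9.77 in AUF1 and 10.24, 10.05, 10.29 and 9.66 in IgG on days 0, 2, 4 and 6. It was therefore well above IgG on the first 3 days and close to it on day 6. The difference over the 4 days was 0.81 ± 0.156 (SE, adjusted p = 0.00103 by limma, higher on 13 of 14 AUF1 arrays). Its adjusted p lay between 3.31e-05 and 0.689 over 37 alternatives, and median scaling gave -0.135.

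ILMN_2650392 and ILMN_1244123 had the largest differences downward. ILMN_2650392 lay between 8.17 and 9.53 on the AUF1 arrays, with a median of 9.05, and between 9.02 and 11.1 on the IgG arrays, with a median of 10.61. All 14 AUF1 arrays were below the IgG mean of their day, yet the groups overlapped on 3 of the 4 days. The IgG arrays were themselves split: on day 6 they read 10.15 and 10.68 in experiments 1 and 2 but 9.06 and 9.04 in experiments 3 and 4, and experiment 4 of IgG on day 0 read 9.02. The difference was -1.21 ± 0.22 (SE, adjusted p = 0.000695 by limma, 2.75e-06 to 0.00365 over 37 alternatives), and -2.34 with median scaling.

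ILMN_1244123 lay between 8.04 and 9.86 on the AUF1 arrays, with a median of 9, and between 8.31 and 11.1 on the IgG arrays, with a median of 10.42. The same split was seen on day 6, with 10.31 and 11.06 in IgG experiments 1 and 2 and 8.31 and 8.39 in experiments 3 and 4, at the AUF1 level of 8.85, 8.17, 8.28 and 8.04. Its difference was -1.19 ± 0.225 (SE, adjusted p = 0.000905 by limma, 8.02e-06 to 0.00814 over 37 alternatives, and -2.3 with median scaling), and all 14 AUF1 arrays were below the IgG mean of their day.

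**Figure D3:**
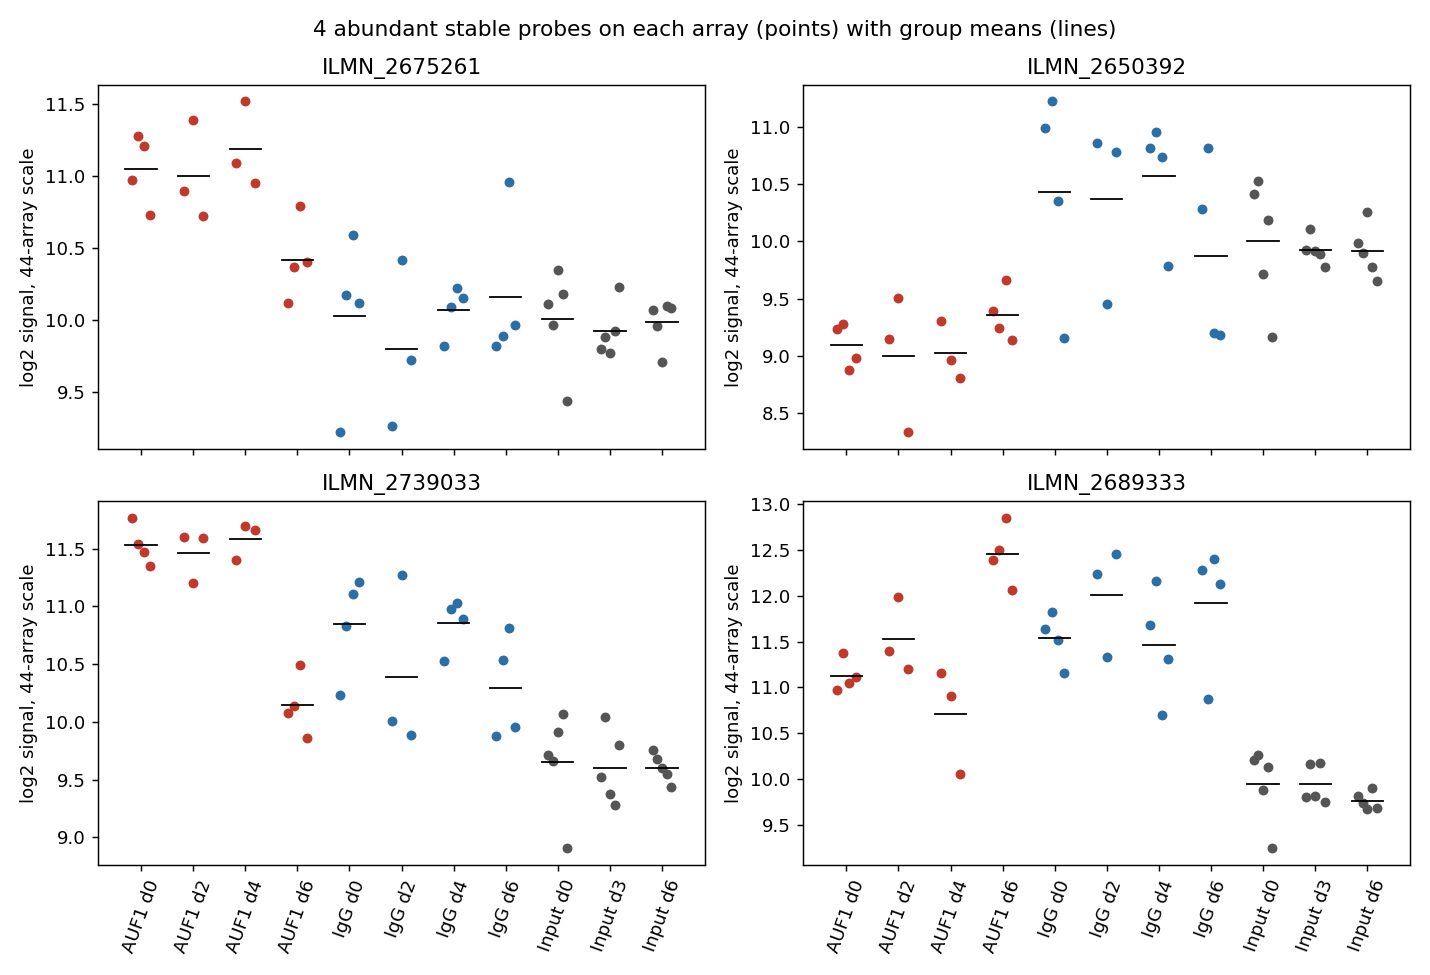
Log2 signal of 4 abundant stable probes on each array after normalizing all 44 arrays together, by group and day (d); points are arrays and lines are group means. ILMN_2675261 is high and ILMN_2650392 low in AUF1 on days 0, 2 and 4. ILMN_2739033 is lower and ILMN_2689333 higher in AUF1 on day 6 than on day 0. The input means of each probe stay level across days, which the rule largely fixed. Single input arrays spread, between 9.17 and 10.53 in ILMN_2650392.

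Differences were also set out by experiment, each averaged over the days on which it had an AUF1 and an IgG array. Experiment 2 had no such pair on day 4 and experiment 3 none on day 2, so the averages cover different days. Among the 53 probes called higher over the 4 days, the median AUF1 minus IgG difference was 0.606 in experiment 1, 0.546 in experiment 2, 0.387 in experiment 3 and 0.346 in experiment 4, with all 53 above 0 in each. Among the 46 called lower it was -0.846, -0.731, -0.533 and -0.457, with 45, 46, 46 and 46 below 0. These probes were called on the same arrays, so the values describe the calls and do not support them. Over all 300 the median size of the difference was 0.382, 0.345, 0.232 and 0.206 in experiments 1 to 4. This order did not hold on every day: on day 6 the median size was 0.16 in experiment 1, 0.386 in experiment 2, 0.179 in experiment 3 and 0.16 in experiment 4.

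On single days few abundant stable probes were called by the fit that did not pair arrays by experiment. More were called on days 0, 2 and 4 with the experiment as a block, as given below. On day 0, 0 were higher and 1 was lower, 0.333% of the 300, against 0.412% of probes detected on all arrays and 0.145% of all tested. On day 2, 2 were higher and 6 lower, 2.67%, against 2.74% and 2.13%. On day 4, 2 were higher and 4 lower, 2%, against 1.53% and 0.688%. The shares were near those of the other widely detected probes on each of these days. At an unadjusted p under 0.05 by limma, 67, 73 and 83 of the 300 passed on days 0, 2 and 4. These are 22.3%, 24.3% and 27.7%, against 23.5%, 25% and 27.3% of probes detected on all arrays and 12.4%, 20.5% and 18.3% of all tested.

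With the experiment as a block the counts were 40 higher and 37 lower on day 0 (25.7%, against 26.6% of probes detected on all arrays and 12.8% of all tested). They were 53 and 51 on day 2 (34.7%, against 35.4% and 26.2%) and 43 and 43 on day 4 (28.7%, against 32% and 24.6%). The experiment numbers were taken to pair AUF1 and IgG arrays on days 0, 2 and 6 but not on day 4, by the check given with the processing. With median scaling 0 were called on day 0, 0 higher and 100 lower on day 2 (33.3%, against 15.5% of all probes tested), and 0 higher and 30 lower on day 4 (10%, against 5.32%), where the medians of all probes were -0.362, -0.851 and -0.734. Single arrays decided the counts of the fit without the block. Shares of other probes are not set beside the values with arrays left out, so these are no result particular to the 300. Leaving out the IgG array of experiment 4 gave 3.33% of the 300 on day 0 and 10.3% on day 2. On day 0 leaving out any array except that one and the AUF1 array of experiment 2 gave 0%. On day 2 the share was 0% without AUF1 experiment 2 or IgG experiment 1 or 2, and 0.667% without AUF1 experiment 1. On day 4 it was 0% without AUF1 experiment 3 or IgG experiment 1, 0.333% without AUF1 experiment 4 and 0.667% without AUF1 experiment 1 or IgG experiment 3 or 4. Without the 5 arrays under 30% detected, limma called 0 of the 300 on days 0 and 4 (72 and 41 at an unadjusted p under 0.05). It also called 0 on day 2 (55 unadjusted), but there AUF1 kept 1 array, whose spread the fit takes over from the remaining groups.

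AUF1 minus IgG was alike across probes on days 0, 2 and 4, and less so on day 6. AUF1 minus IgG correlated across the 300 probes with r = 0.915 between days 0 and 2, 0.897 between days 0 and 4 and 0.884 between days 2 and 4. Between day 6 and days 0, 2 and 4 it was 0.38, 0.377 and 0.32. The days share no arrays but share probes, experiment numbers and normalization. For the 1452 equally abundant probes that changed in input, r between days 0 and 2 was 0.916. Between days 0 and 4 it was 0.904 there, and between days 2 and 4 it was 0.873. Between day 6 and days 0, 2 and 4 it was 0.47, 0.463 and 0.412. The likeness on days 0, 2 and 4 was thus of about the same size there. Of the 300, 236 had the same sign on days 0, 2 and 4, with 131 higher and 105 lower in AUF1, and 145 had it on all 4 days. Counts of sign for other probes are not given here, so these are no result particular to the 300.

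ILMN_3139818 was the 1 abundant stable probe called on day 0 by the fit without the block. It read 9.56, 9.73, 9.44 and 9.64 in AUF1, against 10.82, 11.05, 10.71 and 10 in IgG. Every AUF1 array was below every IgG array, and the difference was -1.05 ± 0.21 (SE, adjusted p = 0.0297 by limma, 0.000173 to 0.303 over 17 alternatives). Median scaling gave -1.76, and the call was lost on leaving out any one array except AUF1 experiment 2 or IgG experiment 4. It was called again on day 4, with 9.62, 9.13 and 9.25 in AUF1, against 10.86, 10.23, 10.68 and 10.39 in IgG. There too the arrays did not overlap, and the difference was -1.21 ± 0.227 (adjusted p = 0.0168 by limma, 5e-04 to 0.277 over 16 alternatives). Median scaling gave -2.52, and leaving out AUF1 experiment 3 or IgG experiment 1 ended the call.

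ILMN_2688763 was higher in AUF1 on days 2 and 4. It read 11.45, 11.65 and 11.76 in AUF1 on day 2, against 10.51, 10.39 and 11.08 in IgG, a difference of 0.957 ± 0.238 (SE, adjusted p = 0.0355 by limma, 0.00316 to 0.505 over 15 alternatives). On day 4 it read 11.4, 11.86 and 11.76 in AUF1, against 10.44, 10.15, 10.94 and 10.98 in IgG, a difference of 1.04 ± 0.223 (adjusted p = 0.0363 by limma, 0.00715 to 0.962 over 16 alternatives). AUF1 and IgG arrays did not overlap on either day, but with median scaling the difference was -0.698 on day 2 and 0.042 on day 4. The day 2 call was lost on leaving out any one array except IgG experiment 4, and the day 4 call without AUF1 experiment 3 or 4 or IgG experiment 1. On day 6 the probe read 10.57, 10.83, 10.78 and 10.7 in AUF1, against 10.53, 10.55, 10.54 and 10.55 in IgG, so AUF1 was still above IgG without overlap, but close to it.

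Other probes named for day 2 were ILMN_2757599, ILMN_2706567 and ILMN_3109360. ILMN_2757599 read 10.36, 10.47 and 10.32 in AUF1, against 9.07, 9.51 and 9.79 in IgG, a difference of 0.925 ± 0.242 (SE, adjusted p = 0.0433 by limma, 0.00602 to 0.311 over 15 alternatives, and -0.949 with median scaling). ILMN_2706567, the probe with the largest difference of that day, read 10.81, 10.67 and 10.68 in AUF1, against 12.43, 12.57 and 11.69 in IgG, a difference of -1.51 ± 0.268 (adjusted p = 0.0106 by limma, 0.00043 to 0.137 over 15 alternatives, and -3.21 with median scaling). ILMN_3109360 read 9.6, 9.59 and 9.13 in AUF1, against 11.32, 10.55 and 10.14 in IgG, a difference of -1.23 ± 0.295 (adjusted p = 0.0311 by limma, 0.00149 to 0.247 over 15 alternatives, and -3.18 with median scaling). In each of the 3 probes all 3 AUF1 arrays lay on the same side of all IgG arrays. The calls of ILMN_2757599 and ILMN_3109360 were lost on leaving out any one array except IgG experiment 4, and that of ILMN_2706567 without AUF1 experiment 2 or IgG experiment 1 or 2.

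Other probes named for day 4 were ILMN_1256673 and ILMN_2762514. ILMN_1256673 read 10.63, 10.67 and 10.83 in AUF1, against 10.04, 9.4, 9.97 and 10.2 in IgG, a difference of 0.81 ± 0.192 (SE, adjusted p = 0.0487 by limma, 0.00617 to 0.684 over 16 alternatives, and -0.374 with median scaling). ILMN_2762514 read 9.61, 9.28 and 9.2 in AUF1, against 10.82, 10.75, 10.27 and 10.2 in IgG, a difference of -1.15 ± 0.27 (adjusted p = 0.0472 by limma, 0.00659 to 0.301 over 16 alternatives, and -2.49 with median scaling). The arrays did not overlap in either probe. Leaving out any one of the 7 arrays of the day ended the call of ILMN_1256673, and any one except IgG experiment 2 that of ILMN_2762514.

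On day 6 none of the 300 abundant stable probes was called by limma, and none of the 13812 probes tested (0%). At an unadjusted p under 0.05, 2 of the 300 and 132 of all probes (0.956%) passed. With the experiment as a block 0 were called. By that fit 17 of the 300 passed the unadjusted threshold (5.67%, against 8.67% of probes detected on all arrays and 5.37% of all tested). With array weights 2 were called, both lower in AUF1. The share of all probes with array weights is not given here, so these 2 are no result particular to the 300. Over the 300 probes, days 0, 2, 4 and 6 had median sizes of AUF1 minus IgG of 0.341, 0.391, 0.385 and 0.13. The range on day 6 was -1.18 to 0.55.

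Whether AUF1 minus IgG itself differed between days 6 and 0 was tested as an interaction. limma called 0 of the 300 probes and 0 of all (0%), with 9 of the 300 at an unadjusted p under 0.05 (3%, against 4.87% of probes detected on all arrays and 2.47% of all tested). With the experiment as a block 0 were called and 75 of the 300 passed the unadjusted threshold (25%, against 22.7% and 11.2%). The interaction had a median SE of 0.377 over the 300 probes, against a median size of 0.337. The smaller differences on day 6 are therefore given as values, without a call for any single probe.

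**Figure D4:**
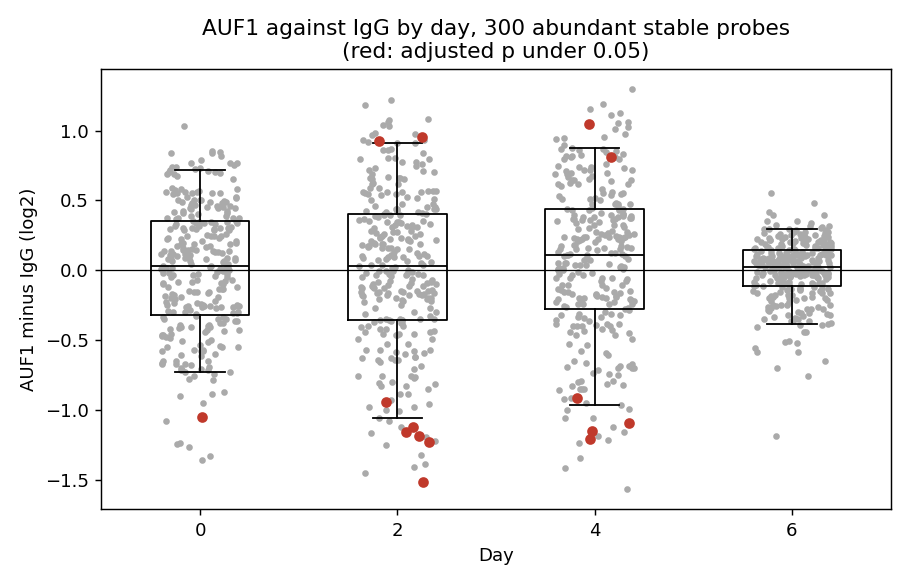
AUF1 minus IgG (log2) of each of the 300 abundant stable probes by day. Boxes span the quartiles with the median, and whiskers the 5th and 95th percentiles. Red points are probes with an adjusted p under 0.05 by limma without the block (1, 8, 6 and 0 on days 0, 2, 4 and 6). The spread is narrowest on day 6.

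Input levels of these RNAs were level across days because the rule asked for it, so a comparison of the pulldowns with input in this respect would be settled by the selection. The changes within each pulldown were not used by the rule and were tested. In the AUF1 pulldown 17 of the 300 were higher on day 6 than on day 0 and 25 were lower, 14% (limma, adjusted p under 0.05). The share was 16.8% among probes detected on all arrays, 20.9% among the 1452 equally abundant probes that changed in input and 7.47% among all tested. The abundant stable probes were called a little less often than other widely detected probes, which is near that background. In the IgG pulldown 1 of the 300 was higher and 0 were lower, 0.333%, against 4.02%, 7.16% and 2.32% in the same 3 sets. At an unadjusted p under 0.05 by limma, 109 of the 300 passed in AUF1 (36.3%, against 34.4% of probes detected on all arrays and 18% of all tested) and 24 in IgG (8%, against 17% and 10.1%). The interaction above called no probe, so the counts in AUF1 and IgG are not shown to differ for any single probe.

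The 42 probes called in AUF1 were selected for their change there, so their smaller values in IgG and input are a description and show no difference between the antibodies. In the 17 called higher in AUF1, the median change was 0.945 in AUF1, 0.386 in IgG and 0.0331 in input (log2, day 6 minus day 0), and 16 of the 17 were above 0 in IgG. In the 25 called lower it was -0.997 in AUF1, -0.396 in IgG and 0.0152 in input, and all 25 were below 0 in IgG. Input changes of these probes lay between -0.202 and 0.219. Over all 300 the changes in AUF1 and in IgG, which share no arrays, correlated with r = 0.707 across probes and had the same sign in 234. No value for other probes is given beside this likeness. Arrays of AUF1 and IgG with the same experiment number deviated together on both days, and their part in this likeness was not tested.

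The counts moved with the scaling and with single arrays. Shares of other probes are not set beside the counts with median scaling or with arrays left out. Those counts are thus no result particular to the 300. With median scaling 0 of the 300 were called in AUF1 (15 at an unadjusted p under 0.05 by limma) and 0 in IgG (1 at an unadjusted p under 0.05). Leaving out 1 array at a time, the AUF1 share lay between 7.67% and 14%. It was 8.67% without day 0 experiment 1, 7.67% without day 0 experiment 3, 8% without day 6 experiment 1 and 8.33% without day 6 experiment 2. In IgG it was 0% without day 6 experiment 1 or 3 or day 0 experiment 2 or 3, and 1% without day 6 experiment 2. The arrays also differed in detected share, which was 39.9% ± 5.99 on day 6 and 36.7% ± 5.51 on day 0 in AUF1 (SD, n = 4 each), and with this share as a covariate 32 probes were called higher and 42 lower in AUF1 (24.7%, against 12.3% of all probes tested).

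ILMN_2689333 and ILMN_2883016 changed most upward in AUF1 between these days. ILMN_2689333, also the probe farthest above input, read 12.28, 12.41, 12.79 and 11.94 in AUF1 on day 6, against 10.84, 11.26, 10.93 and 10.99 on day 0. The days did not overlap, and the change was 1.35 ± 0.339 (SE, adjusted p = 0.0133 by limma, 0.000805 to 0.233 over 17 alternatives). ILMN_2883016 read 11.89, 11.92, 11.83 and 11.02 on day 6, against 10.46, 11.2, 10.26 and 10.03 on day 0. Its days overlapped through experiment 4 of day 6 and experiment 2 of day 0, and the change was 1.18 ± 0.358 (adjusted p = 0.0419 by limma, 0.000625 to 0.204 over 17 alternatives). This call was lost on leaving out any one of the 8 arrays except day 0 experiment 2 or day 6 experiment 4.

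ILMN_2880067 and ILMN_2739033 changed most downward in AUF1. ILMN_2880067 read 9.92, 9.92, 10.02 and 10.26 on day 6, against 11.26, 11.04, 11.86 and 11.66 on day 0, a change of -1.42 ± 0.336 (SE, adjusted p = 0.00828 by limma, 0.000731 to 0.687 over 17 alternatives). ILMN_2739033 read 9.95, 10.01, 10.37 and 9.73 on day 6, against 11.65, 11.42, 11.35 and 11.23 on day 0, a change of -1.4 ± 0.269 (adjusted p = 0.00157 by limma, 3.74e-05 to 0.472 over 17 alternatives). In both probes all 4 arrays of day 6 lay below all 4 of day 0. In IgG ILMN_2739033 read 9.74, 10.41, 10.68 and 9.82 on day 6, against 10.1, 10.7, 10.99 and 11.08 on day 0, so the days overlapped there. On day 6 the AUF1 and IgG arrays of this probe overlapped.

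The probe called in IgG was ILMN_2783457. It read 10, 9.39, 10.57 and 10.37 on day 6, against 8.97, 9.24, 9.33 and 9.3 on day 0, with no overlap. The change was 0.871 ± 0.228 (SE, adjusted p = 0.0383 by limma, 0.00242 to 1 over 17 alternatives), and leaving out any one of 7 of the 8 arrays of the comparison, all but day 6 experiment 2, ended the call. In AUF1 the probe read 10.15, 10.23, 10.79 and 10.42 on day 6, against 9.95, 9.56, 9.64 and 9.57 on day 0, also without overlap.

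**Figure D5:**
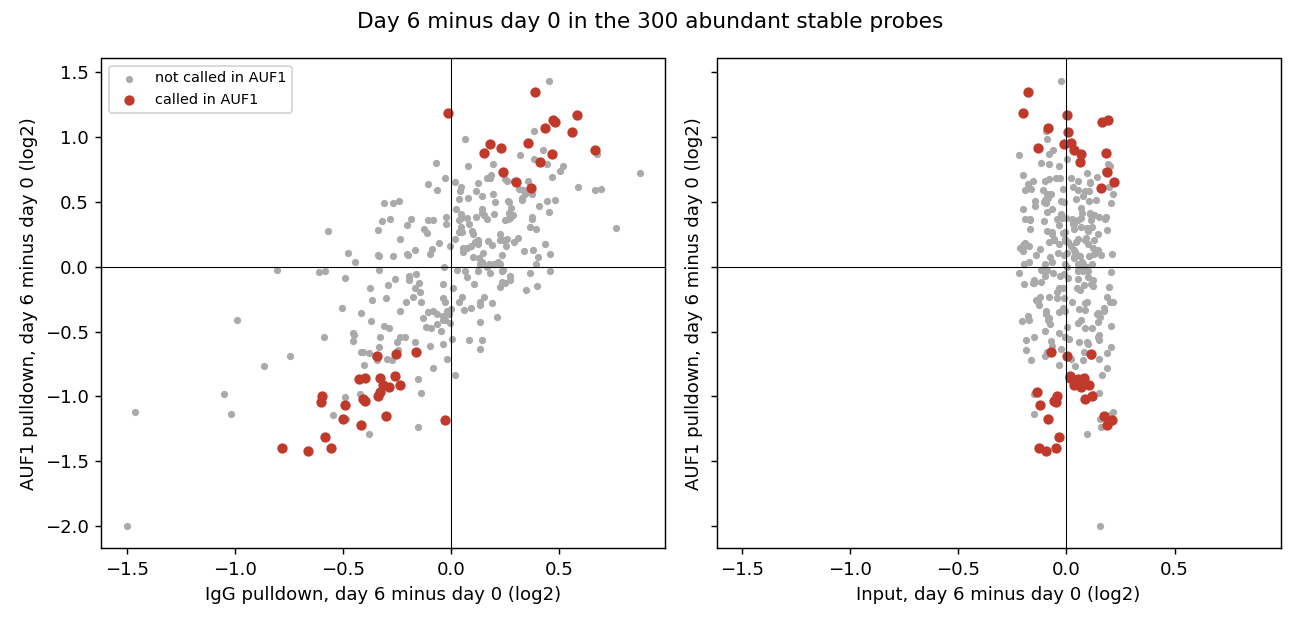
Day 6 minus day 0 (log2) of each of the 300 abundant stable probes in the AUF1 pulldown (vertical axes) against the same difference in the IgG pulldown (left) and in input (right). Red points are the 42 probes called in AUF1; they follow the same direction in IgG, except for 1 near 0, and lie within -0.202 to 0.219 in input.

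The limit of 0.2 that the rule set on input was then laid on the pulldowns. On days 2, 4 and 6, the AUF1 pulldown had 141, 181 and 76 of the 300 within 0.2 of their day 0 level. In IgG these counts were 127, 147 and 131. The smallest number was that of AUF1 on day 6, where the median size of the change was 0.413, against 0.238 in IgG. On day 6, 25.3% of the abundant stable probes lay within 0.2 of day 0 in AUF1 and 43.7% in IgG. Among the 1452 equally abundant probes that changed in input these shares were 22.9% and 35.2%. On days 2 and 4 the abundant stable probes had 47% and 60.3% in AUF1, against 37.4% and 41.9% of the 1452. In IgG they had 42.3% and 49%, against 30% and 32.9%. Shares over all probes are not given here. Pulldown means rest on 3 or 4 arrays, and the part of the spread between arrays in these counts was not tested.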

How the data were processed

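For 25697 probes on 44 arrays (14 AUF1, 15 IgG, 15 input), the authors deposited signal intensity without normalization, per the file headers. Beside it stands a deposited detection p-value per probe and array. GenomeStudio 1.6.0 is named in the submitters' processing notes. The sources used here do not say whether the authors subtracted background. All signal columns were used (0 left out), and 0 pairs of columns were identical. Column names give group, experiment and array number. Because experiment numbers differ from the titles' replicate numbers, columns were assigned to groups, not to single samples; on each input day a pair of arrays shares an experiment number.

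The neqc function of limma 3.58.1 (R 4.3.3) was applied to the signals: normal-exponential background correction with negative controls inferred from detection p-values, an offset of 16, quantile normalization and log2. This was done for the 29 pulldown arrays, and separately for all 44 arrays to set pulldown beside input. Probes detected on at least 3 pulldown arrays were tested (lmFit, eBayes) with 1 mean for each antibody and day and 1 spread per probe. Calls are adjusted p under 0.05 by Benjamini-Hochberg over all tested probes. The scripts were tested on simulated data. The number of arrays limits the precision.

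The experiment numbers come from the column names. Deviations of AUF1 and IgG arrays with the same number from their group means correlated over probes. The pairs of day 0 had correlations of 0.26 to 0.771, those of day 2 had 0.114 to 0.484, those of day 4 had -0.0939 to 0.718 and those of day 6 had 0.162 to 0.837. All pairs were above 0.1 except on day 4, so the numbers were taken to pair arrays on days 0, 2 and 6. Arrays with different numbers correlated up to 0.303, 0.133, 0.465 and 0.341 on days 0, 2, 4 and 6, so this limit does not separate the pairs from other arrays. The IgG array of the same number was the best match for 3 of 4, 3 of 3, 2 of 3 and 3 of 4 AUF1 arrays.

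The members and lists were chosen with earlier results of these data known. Named probes are, per tested comparison, up to 2 called members with the highest and 2 with the lowest change, the 2 highest and 2 lowest in AUF1 minus input, and the edges of the rule. The calls used for naming were those of the fit without the block. Gene lists, cell type markers and sequences are not used here, since 0 of the probe identifiers were found in the available gene table; the labelled cell type could therefore not be checked against markers. Alternatives were background correction, median scaling, detection filters, the groups in the fit, the block, arrays left out, array weights, detected share and the choice of members.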

Additional observations from a re-analysis of the deposited data

Results flagged for a closer look

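In groups of 4 to 10 arrays, 84 sets of values were searched for an array far from the others of its group (a gap to the nearest array that is large for the group's range). Chance gives about 1 in 20, and 6 were found. IgG day 6 experiment 3 had 35.66% of probes detected and IgG day 4 experiment 2 had 25.57%, each the lowest of its 4 arrays by a wide gap. On the same IgG day 4 array the 300 abundant stable probes held 4.789% of the summed signal. ILMN_2675261 read 10.84 (log2) on IgG day 6 experiment 3, above the other IgG arrays of that day. ILMN_3104414 read 9.213 on IgG day 0 experiment 1, below the others. ILMN_2883016 read 11.02 on AUF1 day 6 experiment 4, also below the others.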

How the results depend on the processing

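Values are the percentage of the 300 probes called unless a median is named. The shares of other probes are not given beside them here. The values show how the counts depend on the processing and are no result particular to the 300. Median scaling gave 64.7% for AUF1 minus IgG over 4 days, 0% on day 0, 33.3% on day 2, 10% on day 4, and 0% for both pulldowns between days 6 and 0; it turned ILMN_2675261 (-0.0674), ILMN_3104414 (-0.135), ILMN_2688763 on day 2 (-0.698), ILMN_2757599 (-0.949) and ILMN_1256673 (-0.374). The replicate block gave 56.3% over 4 days, 25.7%, 34.7% and 28.7% on days 0, 2 and 4, and changed no call on day 6 or for the interaction; it could not be fitted within 1 antibody. Experiment across days as a replicate block, chosen after seeing the data, gave 22.7% (AUF1) and 1.67% (IgG) between days 6 and 0. Array weights gave 13%, 21.7%, 15.7% and 0.667% on days 0, 2, 4 and 6, and 36% (AUF1) and 14.7% (IgG) between days. The detected share as covariate gave 1%, 9.67% and 16.3% on days 0, 2 and 4, and 24.7% and 2% between days. Fitting only the groups compared gave 0% on days 0, 2 and 4 and for IgG between days, and does not apply to the mean of 4 days; leaving out the arrays under 30% detected gave 0% on days 0, 2 and 4, with 1 AUF1 array left on day 2, assumed to vary like the other groups. Testing only probes detected on all arrays gave 1.67%, 4.67% and 6% on days 0, 2 and 4, and 21.7% and 1% between days. IgG between days was 1% without background correction and 0.667% without a detection filter. With a stability limit of 0.1, which 247 probes met, days 0, 2 and 4 gave 0%, 0.81% and 0.405% and IgG between days 1.62%; a limit of 0.3 gave 0.667%, the 600 highest 1.33% and the 100 highest 0% for IgG between days, and the 100 highest 0% on day 0. Leaving out 1 array gave 25.3% to 35.7% over 4 days, 0% to 3.33%, 0% to 10.3%, 0% to 2.67% and 0% to 0% on days 0, 2, 4 and 6, 7.67% to 14% (AUF1) and 0% to 1% (IgG) between days, and 0% to 0% for the interaction. Median pulldown minus input differences, in the order AUF1 day 0, IgG day 0, AUF1 day 6, IgG day 6, were 0.568, 0.466, 0.602 and 0.524 with the limit of 0.1, -0.147, -0.144, -0.0393 and -0.117 with 0.3, -0.284, -0.26, -0.127 and -0.184 for the 100 highest, and 0.281, 0.26, 0.288 and 0.27 for the 600 highest. Median scaling gave medians of -0.829 (AUF1 day 0), -0.19 (IgG day 0) and -0.384 (AUF1 day 6), and shares not overlapping of 13.3% (IgG day 0), 29.3% (AUF1 day 6) and 29% (IgG day 6). Leaving out 1 array gave medians of -0.0479 to -0.000902, -0.0739 to 0.042, -0.00494 to 0.0506 and -0.016 to 0.0215, and shares of 37% to 47.7%, 29.7% to 43%, 51.7% to 59.3% and 44.7% to 53%, in the same order. The normalization was kept here, so leaving out an array can only keep or raise the share not overlapping, and a fall could not be seen. Of 374 alternative values for named probes, 284 kept direction and call, 85 lost the call (55 of them leaving out 1 array) and 5 changed direction. The causes were not tested. Before normalization the median signal of the 300 probes averaged 234.7 ± 82.57 (SD, n = 5) on the pulldown arrays under 30% detected. On the other pulldown arrays it averaged 1119 ± 439.6 (n = 24), and the part of this in the results was not tested.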
